A study of Mus musculus with 10 samples.

Results

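Ms4a8a, Me2, Gsdme and Tspan8 are 4 of 21951 mouse protein-coding genes, chosen by the measured score of a peak in or near them: each lies at 1 of the 8 highest-scoring sites that an antibody to the aryl hydrocarbon receptor (AHR) gave in wild type colon organoids. Every wild type or AHR knockout (KO) peak that overlapped a gene's body or the 50 kb on either side was taken, which gave 35 of 123652 wild type peaks and 1 of 1931 AHR KO peaks. The highest-scoring peak of each gene is called its lead peak, and the 31 remaining wild type peaks are called the other peaks. The scores are the values that selected these genes, so they are given as a description and no test was run on them. Sequence, width, repeat content and the distance from the gene start were not named in the choice, which was made with earlier results of these data known.

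The profiled material was colon organoids, epithelial cultures grown from the intestinal lining, kept in WENR medium (stem cell condition) and exposed for 1 hour to FICZ, a ligand of AHR, at 5 nM. The 4 groups sequenced were wild type with the anti-AHR antibody (4 libraries), wild type input (4 libraries), AHR KO with the antibody (1 library) and AHR KO input (1 library), and input is sheared chromatin that did not go through the antibody step. All groups received FICZ, so no untreated chromatin was compared. The study's methods describe AHR KO mice as Ahr fl/fl animals with Villin-Cre, a recombinase driven in intestinal epithelium, on a C57BL/6 background with wild type littermates. The deposited lists hold 1 set of peaks for the wild type cultures together and 1 for the AHR KO, so no value below has a spread between cultures.

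AHR is a ligand-activated transcription factor. Once bound by a ligand such as FICZ it moves to the nucleus, pairs with ARNT and binds DNA at the xenobiotic response element, whose core is GCGTG and which is often preceded by T and any base (TNGCGTG). AP-1, a dimer of JUN and FOS family proteins, binds the word TGAGTCA or TGACTCA and is a general activator of growth and stress genes in epithelium. Ms4a8a encodes a membrane protein of the membrane-spanning 4A family, Me2 encodes the mitochondrial NAD-dependent malic enzyme that turns malate into pyruvate, Gsdme encodes gasdermin E, whose cleaved form makes pores in the cell membrane, and Tspan8 encodes a tetraspanin of the cell surface that is abundant in colon epithelium.

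The letters under the lead peaks of Ms4a8a, Tspan8 and Gsdme are shown first. Each of these sites held AP-1 words in unmasked sequence and, elsewhere in the peak, a simple repeat of CA. The AP-1 words lay 71 and 79 bases from the longest CA run in Ms4a8a. In Gsdme they lay 232 and 256 bases from it, and in Tspan8 554 and 566. Masked bases are those that the genome sequence marks as repeats. The stretches are from GRCm38 (mm10), forward strand, in lower case, with AP-1 words and GCGTG in capitals, the latter read as CACGC where it lies on the opposite strand. For Ms4a8a a single stretch holds both AP-1 words, all GCGTG words and the longest CA run. For Tspan8 and Gsdme the AP-1 words and the repeat are shown separately, since they are farther apart.

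Ms4a8a, chr19:11074216-11074428: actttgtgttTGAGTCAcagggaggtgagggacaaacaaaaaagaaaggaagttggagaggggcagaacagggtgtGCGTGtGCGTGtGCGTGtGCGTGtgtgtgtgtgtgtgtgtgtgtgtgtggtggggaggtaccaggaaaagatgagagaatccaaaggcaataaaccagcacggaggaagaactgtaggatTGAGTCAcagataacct
Tspan8, AP-1 words, chr10:115780401-115780459: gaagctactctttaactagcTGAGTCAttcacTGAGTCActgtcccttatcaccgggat
Tspan8, GCGTG words and CA repeat, chr10:115780528-115780694: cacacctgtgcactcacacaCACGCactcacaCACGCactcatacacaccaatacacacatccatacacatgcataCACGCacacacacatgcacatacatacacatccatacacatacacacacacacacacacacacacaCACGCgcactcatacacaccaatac
Gsdme, AP-1 words and the GCGTG word, chr6:50255072-50255168: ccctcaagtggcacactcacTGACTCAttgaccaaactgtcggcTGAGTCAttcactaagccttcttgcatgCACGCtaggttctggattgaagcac
Gsdme, longest CA run, chr6:50255335-50255426: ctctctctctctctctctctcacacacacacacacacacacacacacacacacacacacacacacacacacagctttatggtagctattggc

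The 2 AP-1 words of the Ms4a8a peak stood on either side of the repeat with 179 bases between them. In Tspan8 only 5 bases, and in Gsdme 17 bases, separated the pair, and in both genes the pair lay upstream of the repeat on the forward strand. The 4 GCGTG words of the Ms4a8a peak were stepped along the start of the TG run, each of them within GTGCGTG, as the printed letters show. None of them was a TNGCGTG. The single GCGTG word of the Gsdme peak was a TNGCGTG on the reverse strand, and it lay beside the AP-1 pair rather than in the repeat.

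The Ms4a8a lead peak had the highest score of the wild type list, 60.4. From its values, since no header names it, the score was read as the fold enrichment of the authors' peak caller, the fragments piled up in the ChIP plus 1 over those expected from background plus 1. The peak spanned 459 bp at chr19:11074114-11074572, in intron 3 of the gene (ENSMUSG00000024730.7, chr19:11067471-11081102, reverse strand), 6.76 kb after its start. The locus held 8 other wild type peaks, with scores from 4.32 to 6.34 (median 5.30), so the lead scored 9.53 times its nearest rival. One of these, with a score of 4.32, lay in the same intron, 7.80 kb from the start. Of the 8, 7 were at least 50% repeat-masked in their central 200 bp, and 1 held a GCGTG word. No AHR KO peak lay in the window, which also covers Ms4a18 and 1700017D01Rik. The AHR KO list had 0.0707 peaks per 100 kb of the assembled chromosomes, so few windows of this size, here or at the genes below, would hold one.

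The Me2 lead peak ranked 4 with a score of 35.9. It spanned 394 bp at chr18:73786928-73787321, in intron 11 of Me2 (ENSMUSG00000024556.4, chr18:73769903-73815449, reverse strand), 28.3 kb after its start. Its 2 GCGTG words overlapped by 1 base and were both within GTGCGTG, 9 and 13 bases from a CA run of 33 bases. It held no AP-1 word, which set it apart from the lead peaks of the other 3 genes. The 8 other peaks of the locus scored from 3.37 to 6.65 (median 5.13), and the lead scored 5.40 times the second. Of those 8, 5 (62.5%, Wilson 95% interval 30.6 to 86.3) were CA repeats in the central 200 bp, and CA runs of 49 and 43 bases in intron 1 gave scores of 5.32 and 4.45. No AHR KO peak lay in the window, which covers Elac1 and Mro as well.

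The Tspan8 lead peak ranked 6 with a score of 35.1. It lay outside the gene, 36.1 kb before its start (ENSMUSG00000034127.15, chr10:115816832-115849893, forward strand), at chr10:115780346-115781093, with Tspan8 as the nearest protein-coding start and no other protein-coding gene in the window. At 748 bp it was the widest of the 4, and only 0.830% of the wild type peaks on assembled chromosomes were as wide. It was also the most repetitive, with 69.0% of its bases masked, 35 copies of CACACA or TGTGTG and a CA run of 45 bases. The locus held 11 other peaks with scores from 4.98 to 7.23 (median 5.59), and the lead scored 4.85 times the second. Of the 11, 8 were CA repeats (72.7%, 43.4 to 90.3) and 5 held GCGTG (45.5%, 21.3 to 72.0). Peaks 2.54 and 1.56 kb before the start scored 5.32 and 4.98.

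The Gsdme lead peak ranked 8 with a score of 33.6. It spanned 563 bp at chr6:50254987-50255549, in intron 2 of Gsdme (ENSMUSG00000029821.15, chr6:50188888-50263862, reverse strand), 8.59 kb after the gene's first start and 6479 bp after the nearest start of one of its 7 transcripts. The locus had 4 other peaks, scored from 4.03 to 4.72 (median 4.63), and the lead scored 7.10 times the second. The second peak, 43.6 kb before the start, carried 6 GCGTG words in the central 200 bp with a score of 4.72, whereas the lead had 0 there and 1 in its whole width. At this locus the peak with more core words was the one with the lower score. No AHR KO peak lay in the window, which also reaches Mpp6 and Osbpl3.

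**Figure D1:**
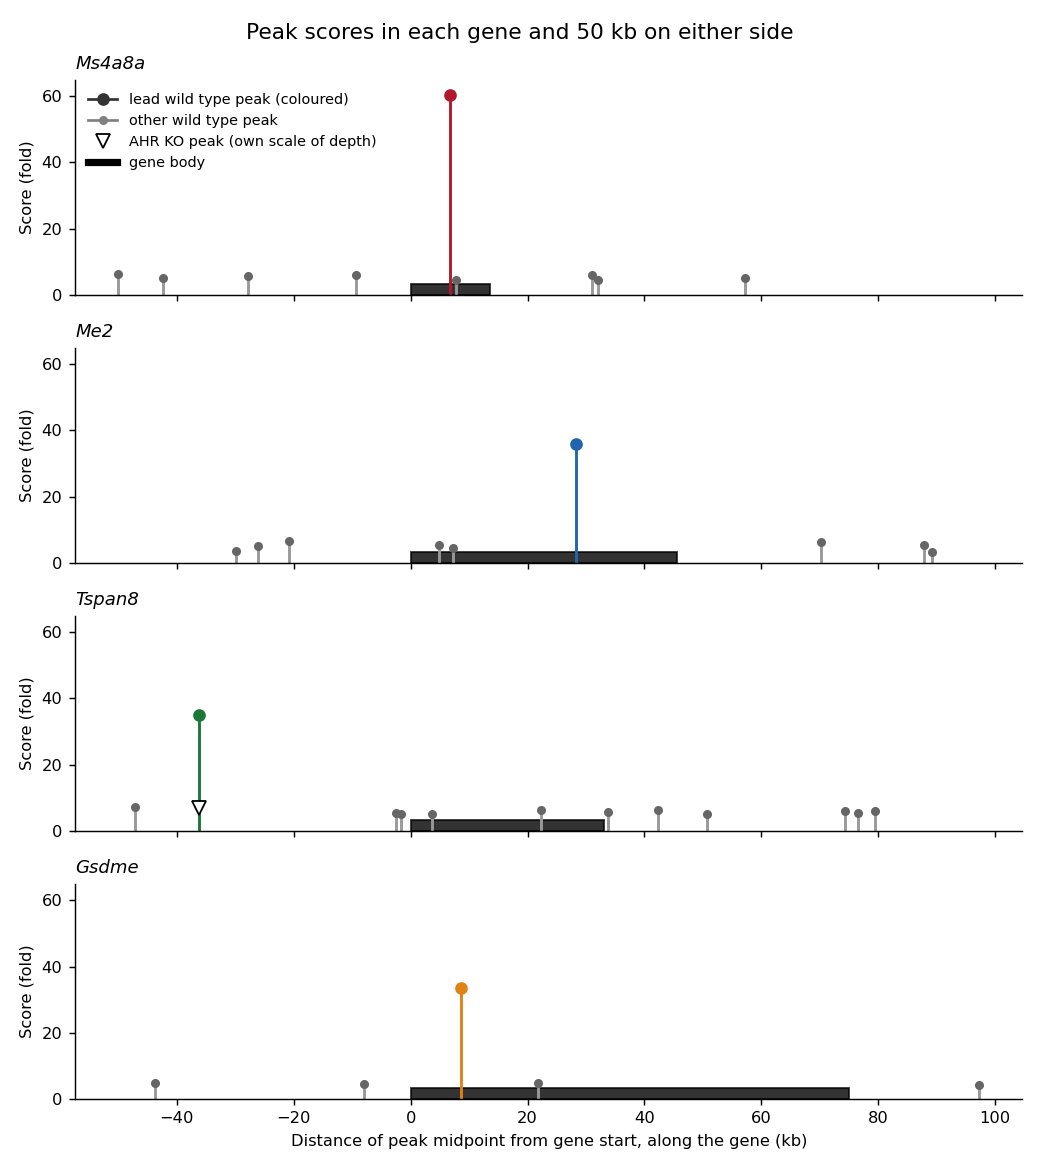
Score of each peak (fold enrichment, vertical axis) against the distance of its midpoint from the gene start along the gene (kb, horizontal axis) for the 4 genes, with lead peaks coloured, other wild type peaks in grey, the AHR KO peak as an open triangle and the gene body as a black bar. Each lead stands at 33.6 or above, while every other peak in the 4 windows is at 7.23 or below.

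Peaks of score 10 or more were 1.06% of the wild type list. At these loci 4 of the 35 peaks, the leads, had such a score. That count was fixed by the choice of genes, so it is not a result to set against the share of the list. The windows held from 2.86 wild type peaks per 100 kb at Gsdme to 9.02 at Tspan8, with 6.18 at Me2 and 7.92 at Ms4a8a, beside 4.66 over the assembled chromosomes. The leads of Me2 and Tspan8 lay farther than 10 kb from the gene start. No wild type peak had its midpoint within 1 kb of the start of any of the 4 genes, and the nearest were at 6.76 kb in Ms4a8a, 4.91 kb in Me2, 1.56 kb in Tspan8 and 7.90 kb in Gsdme. Over all protein-coding genes 6.58% (6.26 to 6.92) had a peak that close.

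At the edge of the choice, rank 8 (Gsdme, 33.6) was followed by rank 9 at 32.8, a peak 2.62 kb before the start of Txnip, which encodes a thioredoxin-binding protein. The other 4 of the 8 highest peaks belong to no chosen gene. They lay 29.0 kb before Ankrd9 (score 53.9), in Txn2, the mitochondrial thioredoxin (45.9), 27.8 kb beyond the start of Nfkbia, the NF-kB inhibitor (35.9), and 36.3 kb before Emp2, an epithelial membrane protein (34.0).

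**Figure D2:**
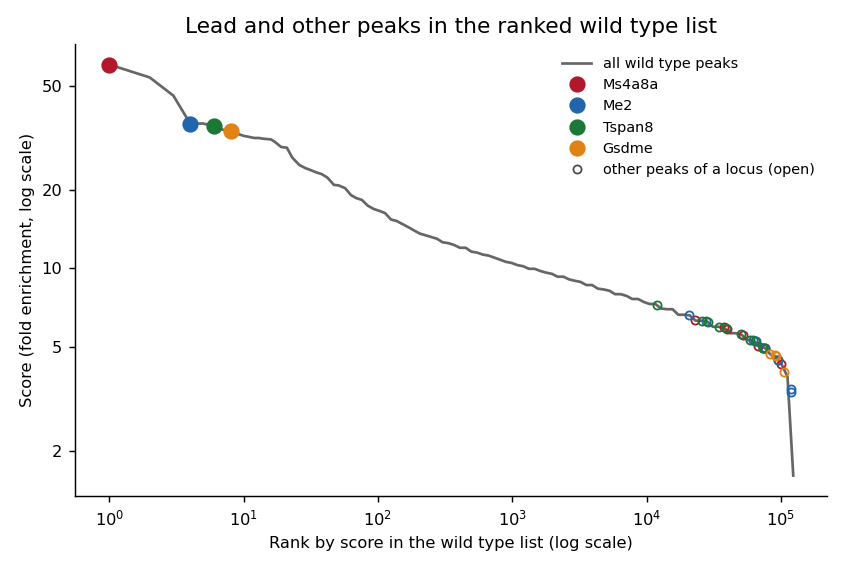
Score (fold enrichment, log axis) against rank (log axis) over the wild type list, with the lead peaks as filled and the other peaks of the 4 loci as open circles. The leads sit at ranks 1, 4, 6 and 8, and the next peak of any of these loci is at rank 12025.

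The sites of Ms4a8a, Tspan8 and Gsdme had in common a pair of AP-1 words in their unmasked part, a property the choice did not use and that was noticed once the letters had been read. The 4 leads held 6 AP-1 words, all 6 in unmasked sequence, and 11 GCGTG words, of which 10 were in masked repeats and 1, that of Gsdme, was not. Their AP-1 density was 2.77 words per kb of peak, or 4.92 per kb of unmasked sequence. The genome had 0.164 and 0.194 words per kb on the same scales, and all wild type peaks had 0.0680 and 0.196. Of the 13450 wild type peaks at least as wide as the narrowest lead, 25 (0.186%, 0.126 to 0.274) held 2 or more AP-1 words, and 3 of those 25 were the leads of Ms4a8a, Tspan8 and Gsdme. The AP-1 words lay off the peak centres: in the central 200 bp only 1 of the 6 remained, that of Ms4a8a at 72 bases from the midpoint. No AP-1 word was found in any of the 31 other peaks (0 of 31, which allows a share of up to 9.68% with 3 counts as the limit of a count of 0), where 1.75% of all wild type peaks held one, so 0 of 31 is near what the list as a whole gives. Their median width was 219 bp, against 511 bp for the leads.

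**Figure D3:**
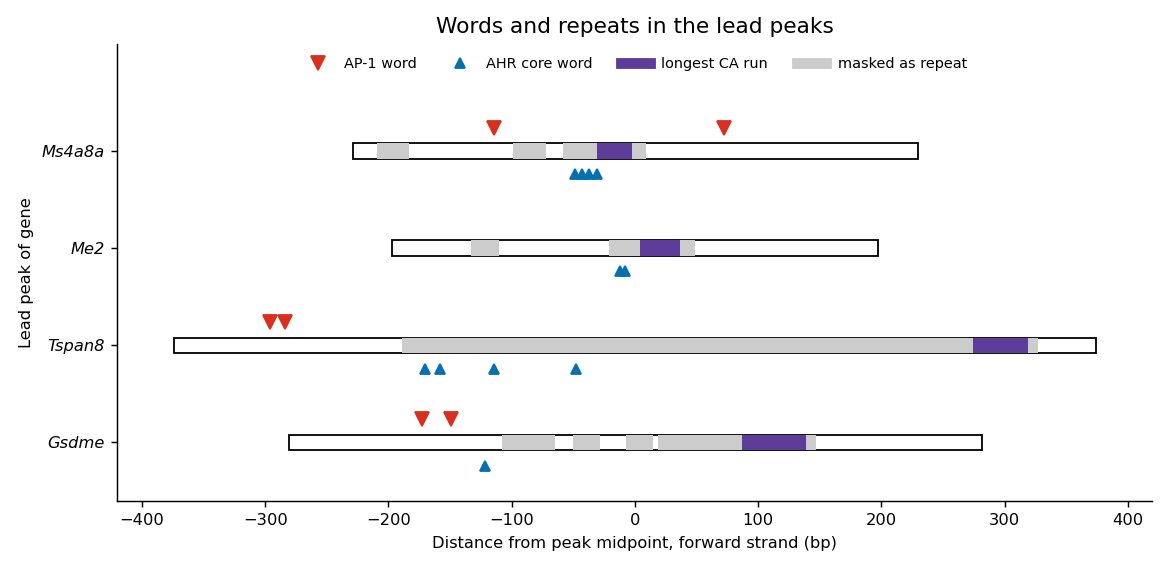
The 4 lead peaks drawn to scale by distance from their midpoints (bp, forward strand), with bases masked as repeat in grey, the longest CA run in purple, AP-1 words as red and AHR core words (GCGTG) as blue triangles. AP-1 words of Ms4a8a, Tspan8 and Gsdme lie in the white, unmasked parts, and all AHR core words but that of Gsdme lie in grey.

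Across the whole list, AP-1 words were denser in higher-scoring peaks, though only up to a score of 30 when the leads are left out. In unmasked sequence there were 0.158 words per kb in the 54501 peaks that scored under 5, 0.183 from 5 to 7.5, 0.270 from 7.5 to 10, 0.465 from 10 to 15, 0.724 from 15 to 20, 1.38 from 20 to 30 and 1.71 in the 17 peaks at 30 or above. In the last class 6 of the 9 words lay in the leads. Without the leads its value was 0.743 (3 words in 13 peaks), below the 1.38 of the class from 20 to 30. The share of peaks with an AP-1 word went from 1.05% (0.964 to 1.13) under 5 to 31.7% (19.6 to 47.0) from 20 to 30 and 23.1% (8.18 to 50.3) at 30 or above without the leads. Width moved with score too: the median was 219 bp under 5 and 479 bp at 30 or above. Within peaks at least 394 bp wide, the share was 1.30% under 5, 3.73% from 10 to 15 and 27.3% (13.2 to 48.2) from 20 to 30. The part of width and of repeat content in this order was not tested.

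Per kb of whole peak GCGTG went from 1.07 words under 5 to 4.02 from 10 to 15 and 9.17 at 30 or above, and to 10.6 in that class without the leads, while the genome had 0.398. Counted in unmasked sequence alone, GCGTG was at 0.459 words per kb under 5, 2.17 from 15 to 20 and 0.951 at 30 or above. Of its copies, 5 of 78 at 30 or above and 831 of 14818 under 5 were unmasked. The leads had 5.08 GCGTG words per kb of peak. The value without them rested on few peaks, since those near Itgav, in Myo7a and near Ddit4 held 16, 13 and 11 of its 67 words, and single peaks of that class ranged from 1 word upwards.

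**Figure D4:**
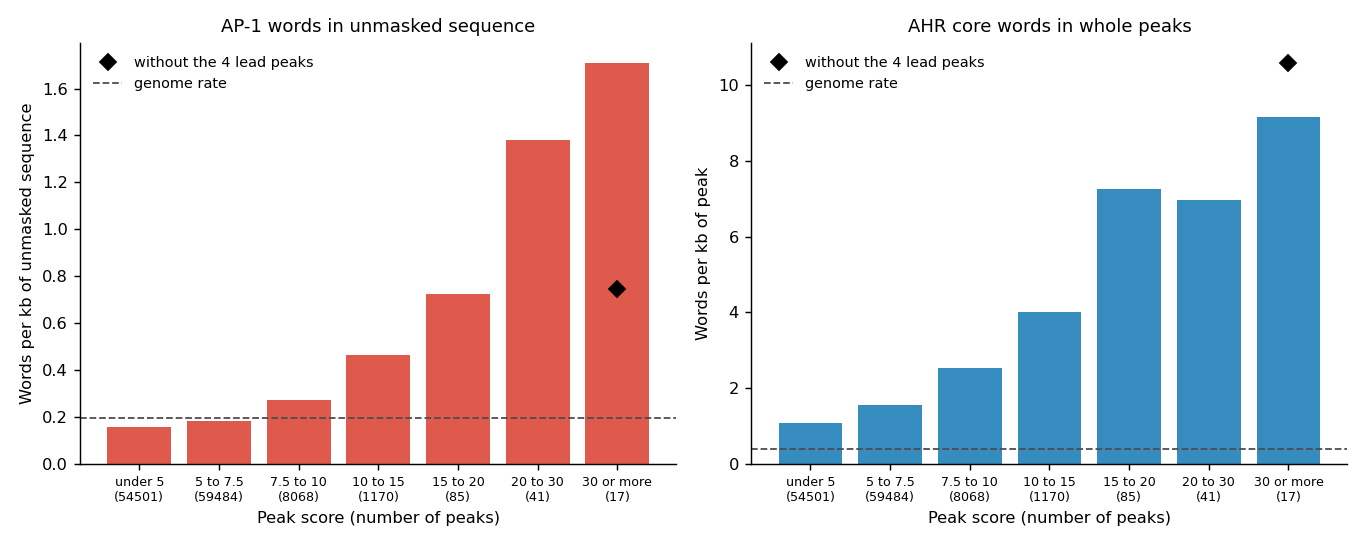
Left, AP-1 words per kb of unmasked sequence by score class of the wild type peaks (number of peaks in brackets), and right, AHR core words (GCGTG) per kb of peak, with the genome rate as a dashed line and the highest class without the 4 leads as a diamond. AP-1 words rise from 0.158 to 1.71. Without the leads the highest class is at 0.743, below the 1.38 of the class from 20 to 30. AHR core words go from 1.07 to 9.17, or to 10.6 without the leads.

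The rest of the 20 highest peaks showed which features the leads shared with sites of like score. Counted over whole peaks, all 20 held at least 1 GCGTG word and held a CA repeat. In the central 200 bp, to which the shares of the whole list given below refer, the Gsdme and Lrig3 peaks held no GCGTG word. An AHR KO peak overlapped 2 of the 16 peaks that are not leads, and 1 of the 4 leads. The median share of masked bases was 32.2% in the leads and 39.5% in the other 16, and the median longest CA run was 39.0 bases against 36.5. AP-1 words were in 3 of the 16, each time as a single word, at the peaks nearest Ankrd9, Lrig3 and Arid1b, and 2 or more were in none of them. In the 41 peaks that scored from 20 to 30, 4 (9.76%, 3.86 to 22.5) held 2 or more. TNGCGTG was in 3 of the 16, nearest Nfkbia, Hoxb8 and Arid1b, and in 1 of the 4 leads. The most core words among these 20 peaks, 16 each, were at the peaks near Itgav and in Ccdc85c, 13 were at the peak in Myo7a and 11 at the one near Ddit4, none of which held an AP-1 word. Peaks in or nearest to Txn2, Emp2, Txnip, Ankrd55, Mib1, Sema4b and Prdm10 made up the remainder, with scores from 29.2 to 45.9.

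Established targets of AHR gave lower scores on a different kind of sequence. The best peaks in or within 50 kb of Cyp1a1, Ahrr and Cyp1b1, which encode a pair of xenobiotic-metabolising enzymes and the AHR repressor, scored 18.0, 11.0 and 10.8. They held 4, 3 and 2 TNGCGTG words among 5, 4 and 4 GCGTG words, with 4 GCGTG words in each of the 3 peaks in unmasked sequence. Masked bases were 8.40%, 1.84% and 7.40% of them, no CA run exceeded 6 bases, and none held an AP-1 word. The 4 leads together held 1 TNGCGTG word and CA runs of 29 to 52 bases.

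Most leads were wider, and less masked over their whole width, than the other peaks of their own loci. Ms4a8a, Me2 and Gsdme leads were 26.1%, 23.6% and 38.2% masked over the whole peak. Only 0.631%, 0.314% and 5.73% of wild type peaks were as little masked, and at each of these loci every other peak was more masked over its whole width. In the central 200 bp this order did not hold throughout: the Ms4a8a lead was 47.0% masked and 1 other peak 29.0%, and the Gsdme lead was 80.0% masked and 2 other peaks 66.5% and 63.0%. There 2 of the 4 leads were at least 50% masked, with 35.0% at Me2 and 100% at Tspan8. At Tspan8, over the whole peak, 4 of the 11 other peaks were more masked than the lead. The lead was wider than every other peak at Me2, Tspan8 and Gsdme, while at Ms4a8a 7 of the 8 others were narrower and 1 spanned 898 bp. Of wild type peaks, 1.51% had at least the 4 central GCGTG words of the Ms4a8a lead 5.36% at least the 2 of Me2 and 17.7% at least the 1 of Tspan8, and the Gsdme lead had none there. Tiled over the genome, 7459 windows of 200 bp held 4 or more GCGTG words, and 30.8% of them touched a wild type peak, against 2.17% of all windows.

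The other peaks resembled the list as a whole. GCGTG was in the central 200 bp of 9 of 31 (29.0%, 16.1 to 46.6) against 17.7% of all wild type peaks, CA repeats in 16 (51.6%, 34.8 to 68.0) against 57.3%, and 27 (87.1%, 71.1 to 94.9) were at least 50% masked against 86.0%. In 60 windows 2 kb to their sides that touched no peak, these shares were 6.67%, 3.33% and 26.7%. The word GGAATG, read by TEAD factors, was in none of the 4 leads and stood at 0.750 words per kb in the other peaks, beside 0.414 in all wild type peaks and 0.594 in the genome. Intervals on shares cover counting error only.

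The AHR KO list had 1 peak in the 4 windows, at chr10:115780519-115780906, with all of its 388 bp inside the Tspan8 lead. It covered part of the CA repeat, with a longest run of 34 bases, and all 4 GCGTG words but neither AP-1 word, and 96.9% of its bases were masked. The list had 0.0707 peaks per 100 kb of the assembled chromosomes, so the lack of one at Ms4a8a, Me2 and Gsdme is what most windows would show. Overlap with the AHR KO list was seen for 1.51% of all wild type peaks and for 1 of the 35 here. Among wild type peaks of score 10 or more, the range in which the 4 leads lie, it was seen for 308 of 1314 (23.4%, 21.2 to 25.8). The AHR KO peak in the Tspan8 lead scored 6.82, rank 968 of its list, where the wild type lead had 35.1, and these scores were not compared because the background differed between the lists. Read from the scores, the wild type background was 2.01 fragments, and that of the AHR KO list was 0.287. This reading rests on the commonest score step of each list, which held 51.6% of wild type but only 17.2% of AHR KO scores. On this reading the Me2 and Gsdme leads rested on 107 and 100 fragments. The Ms4a8a and Tspan8 leads, whose scores are set against a higher local background, rested on at least 180 and 104. With 1 AHR KO library there is no replicate check of the difference.

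The relatives of the 4 genes were looked at in the same way. A peak of score 10 or more lay in the gene or within 50 kb for 9.17% of protein-coding genes, and for 5 of 58 genes of the 4 families, 4 of which are the chosen genes. Without the chosen genes such a peak was found for 0 of 18 Ms4a genes, 0 of 2 malic enzymes, 0 of 8 gasdermins and 1 of 26 tetraspanins. With a minimum score of 8 in place of 10, the 5 genes became 22. The 9.17% does not apply to that minimum, and the share of all protein-coding genes that reach it is not given here. Among the 18 other Ms4a genes, many of which sit in the same cluster and share peaks, the best scores were 8.76 at Ms4a4a and Ms4a4c (the same peak), and the median was 6.77. The cytosolic malic enzyme Me1 and the mitochondrial Me3 had 6.31 and 6.45. The gasdermins Gsdmc and Gsdma had 9.08 and 8.50. The 8 gasdermins other than Gsdme, several of which share a best peak, had a median of 8.07. Of the 26 other tetraspanins, some of which also share a best peak, Tspan2 passed with 12.5 and Tspan11 had 9.97. Their median was 7.31, beside 6.98 over all protein-coding genes.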

How the data were processed

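Wild type (4 cultures) and AHR KO (1 library) colon organoids were profiled by AHR ChIP-seq with input. Per the labels, the authors used mm10, BWA 0.7.15, Picard 2.1.1, MACS2 2.1.1 and HOMER 4.8. The score deposited by the authors was read as a ratio (fold enrichment) from its values, and the background and fragment counts rest on that reading. Read depth per library was not analysed here. The handling of multiply mapped reads is not given in the sources used here, which bears on peaks in repeats. Both lists were read with 1 added to starts. Genes came from GENCODE M21, sequence and soft-masking from GRCm38.p6. GCGTG with its forms TNGCGTG and GTGCGTG for AHR, the AP-1 word and the TEAD word GGAATG were counted on both strands, overlaps included, in whole peaks or in 200 bp around midpoints. A CA repeat had 3 or more separate CACACA words, either strand, and an overlap at least 1 bp. Background depth is 1 over the commonest score step, minus 1, with a tolerance of 0.0001 for a score on the step. For a share of 0 the upper limit is 3 counts over the total, and intervals on other shares are 95% Wilson (scipy 1.17.1). No test was run, since the score chose the genes and peaks are not replicates. The genes, families, words and named genes (the 4 members, genes nearest the 20 highest peaks, protein-coding genes in the windows, the 3 best-scored of each family, Cyp1a1, Cyp1b1 and Ahrr) were chosen with earlier results of these data known. Score classes and the whole-peak and unmasked counts of AP-1 were chosen after seeing the data. The word and repeat counts were tested on simulated data.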

Additional observations from a re-analysis of the deposited data

How the results depend on the processing

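Of 25 values under other settings, 12 stayed within 1.5 times the count or within the interval of the share reported, and 13 did not. With 10 kb or 100 kb on either side the wild type peaks at the 4 loci were 15 or 53, and 12 had a score in the upper quartile of the list. The AHR KO peaks were 0 or 2 with those windows. The 7 GCGTG words in the central 200 bp of the leads became 11 in 500 bp or in whole peaks, and TNGCGTG gave 0 in the central 200 bp. The share of other peaks with a core word was 3.23% for TNGCGTG and 50% among the 8 in the upper quartile. At a limit of 75% masked, 58.1% of other peaks passed. With a minimum score of 8, 22 of the 58 family genes had a peak, with no share over all protein-coding genes at that minimum to set beside it. AP-1 words in the leads, a setting added after seeing the data, were 6 in whole peaks, 4 in 500 bp and 1 in 200 bp. With 10 kb on either side the lead peak stayed the same for 3 of 4 genes, and that of Tspan8 became a peak of score 6.31. The cause was not tested beyond the construction of each setting. No paired analysis was possible because all wild type cultures share 1 deposited list, and no culture could be left out for the same reason. The limits are 1 AHR KO library, read depth per library that was not analysed, and sequence words that show letters, not binding.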
